A study of Homo sapiens with 6 samples.

Results

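The DKK, Kremen and SHISA families include inhibitors of WNT signalling, and 9 of their genes were examined in EJ/T24 cells transfected with FOXA1. The members were DKK1, DKK2, DKK3, DKK4, KREMEN1, KREMEN2, SHISA2, SHISA3 and SHISA5. They were read by 19 of 54613 probesets, namely every probeset whose annotation gives a single symbol that is one of these genes. A probeset is a group of short oligonucleotides on the array that together measure a transcript. The genes were chosen by the higher signals of DKK1 and SHISA3 in FOXA1 transfected cells on these same arrays, so the values of the 9 genes in this contrast are a description. Where a member is said to be called or not, this places it among all probesets and is no independent test of it.

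The EJ/T24 line is established and comes from an invasive human bladder cancer. Whole genome mRNA expression was measured on 6 single-colour Affymetrix arrays, 3 of cells transfected with FOXA1 (in a pcDNA3 vector, by the methods) and 3 of cells transfected with an empty plasmid (control), which the sample labels name as pUC19 and the methods only as an empty vector. All cells were transfected as dishes of 1 line in DMEM with serum, and neither the sample labels nor the methods state how long after transfection RNA was taken or what share of cells took up the plasmid. The methods state that the transfections were performed in triplicate, without saying that each array holds the RNA of a separate dish, so the spread between arrays may be technical.

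WNT ligands bind a Frizzled receptor together with LRP5 or LRP6 at the cell surface, and this stabilises beta-catenin, which then acts on TCF and LEF factors at target genes. DKK proteins are secreted, and DKK1 blocks the pathway by binding LRP5 and LRP6. Kremen receptors bind DKK1 and help to remove LRP6 from the cell surface. SHISA proteins of the endoplasmic reticulum hold back immature Frizzled and FGF receptors, so that fewer reach the surface.

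The 250 bases before the RefSeq start of DKK1 and SHISA3 are shown because these are the genes with the higher signals that the choice of members rests on. Capitals mark matches, on either strand, to the forkhead core motifs TGTTTAC and TGTTTGC, to the TCF/LEF core CTTTGA and to TATAAA, none of which overlap. The DKK1 stretch lies at chr10:52314031-52314280 and the SHISA3 stretch at chr4:42397238-42397487 (RefSeq, GRCh38.p14, plus strand, 5′ to 3′).
DKK1: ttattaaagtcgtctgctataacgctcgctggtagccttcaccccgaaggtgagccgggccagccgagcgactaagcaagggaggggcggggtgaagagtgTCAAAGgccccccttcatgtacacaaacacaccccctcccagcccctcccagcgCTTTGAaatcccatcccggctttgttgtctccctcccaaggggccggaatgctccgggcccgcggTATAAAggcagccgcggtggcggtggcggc
SHISA3: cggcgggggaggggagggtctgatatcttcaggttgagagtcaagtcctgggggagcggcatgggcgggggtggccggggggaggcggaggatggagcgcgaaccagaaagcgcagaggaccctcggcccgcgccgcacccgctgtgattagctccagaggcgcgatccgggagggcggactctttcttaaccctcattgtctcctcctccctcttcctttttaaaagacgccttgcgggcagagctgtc

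The DKK1 stretch held CTTTGA at position -95 and its reverse complement TCAAAG at position -149, and TATAAA at position -30, counted from the RefSeq start. The SHISA3 stretch held no match to any of these motifs. Neither stretch held either forkhead motif. Among the 35116 promoters of the same length, 2.98% held TGTTTAC, 3.23% held TGTTTGC, 11.2% held CTTTGA and 10.7% held TATAAA. The DKK1 stretch had 18 CpG sites and 62.8% G and C, and the SHISA3 stretch 20 CpG sites and 64.8%, against medians of 11 sites and 58.0% over all promoters. Of the other members, SHISA2 and SHISA5 had promoters in the table, 1 and 2 respectively, with no match to these motifs.

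FOXA1 itself, a forkhead factor that opens chromatin for other regulators, was read by 2 probesets. The brighter had signals of 38.9, 34.8 and 31.9 in the FOXA1 transfected arrays and 21.8, 24.4 and 21.0 in the control arrays, and the dimmer was not higher (log2 difference -0.54, SE 0.64). Of the marker lists, KRT18 (means of 2478 and 2261) and vimentin (4068 and 3836) were bright in both groups. EPCAM, CDH1, KRT19, UPK1A, UPK2, UPK3A and KRT20 lay at or under the median probeset signal of 14.5. The keratins KRT8 (means of 30.3 and 28.4, with overlap) and KRT7 (27.4 and 21.0, without overlap) lay above it. Of the other mesenchymal markers, CDH2 (log2 difference -0.45) and FN1 (-0.88) were lower without overlap of the groups, and ZEB1 differed by -0.13 with overlap. Of 7 markers of urothelial differentiation, PPARG (log2 difference -0.15, with overlap) and UPK1B (means of 25.3 and 14.9, without overlap) lay above that median. GATA3 (means of 17.0 and 8.8, with overlap) lay under it. None of these markers passed limma at an adjusted p under 0.05, and their part in the differences of the members was not tested. Of 3 measured leukocyte markers none lay above that median, with summed signals of 21.1 to 33.7 in FOXA1 transfected and 14.7 to 25.5 in control arrays, and of 5 endothelial and muscle markers only PECAM1 did (summed signals of 63.5 to 90.4 and 55.4 to 89.2). The ratio of 3′ to 5′ ACTB signals, a sign of RNA quality, was 2.11 to 2.52 in FOXA1 transfected and 1.54 to 1.92 in control arrays. For GAPDH the ratio was 0.898 to 0.941 and 0.888 to 0.905, with overlapping groups. The part of RNA quality in the differences below was not tested. Since these are bulk RNA samples, fewer cells that express a gene and less RNA per cell cannot be told apart.

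SHISA3 had the largest difference among the members measured above the median signal. It lies at chr4:42397488-42402487 (GRCh38.p14), has 1 probeset (229485_x_at), and showed MAS5 signals of 114.9, 64.4 and 97.1 in FOXA1 transfected and 21.0, 20.2 and 17.8 in control arrays. The groups did not overlap, although the second FOXA1 transfected array was clearly lower than the other two. The means were 92.1 ± 25.6 (SD, n = 3) and 19.7 ± 1.67 (SD, n = 3), a ratio of 4.68. On the log2 scale, FOXA1 transfected minus control, this was a difference of 2.19 (SE 0.23). The direction follows the sample labels and opposes that of the study's own table of changed genes, which has SHISA3 and DKK1 lower in FOXA1 transfected cells. The brighter FOXA1 probeset, without overlap of the groups, runs the way of the labels, with a log2 difference of 0.65 (SE 0.23). It was not called (adjusted p = 0.307 from limma). Of all probesets 10.5% were likewise higher without overlap, so this probeset does not settle the labels. With the groups turned, every sign given here would turn, and 42.1% of the member probesets and 41.7% of all probesets would lie above 0. The suffix _x_at marks probesets with probes shared by other, similar sequences, and there is no other SHISA3 probeset to set beside it.

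DKK1, the secreted inhibitor that binds LRP6, lies at chr10:52314281-52317657 and also has 1 probeset (204602_at). Its signals were 412.3, 390.5 and 366.7 in FOXA1 transfected arrays and 219.9, 201.2 and 225.9 in control arrays. The groups were far apart relative to the spread within each, with means of 390 ± 22.8 (SD, n = 3) and 216 ± 12.9 (SD, n = 3). The ratio was 1.81 and the log2 difference 0.85 (SE 0.09).

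Across all 54613 probesets, limma with Benjamini-Hochberg adjustment called 0.0385% higher and 0.0201% lower in FOXA1 transfected cells at an adjusted p under 0.05. Of the 19 member probesets 2 were called higher, those of DKK1 and SHISA3, and 0 were called lower (by limma, 7 of the 19 had an unadjusted p under 0.05, against 11.3% of all probesets). These 2 are the probesets that the members were chosen for, so nothing is read from the count. Neither was called without the intensity trend (adjusted p = 0.346 for DKK1 and 0.245 for SHISA3 from limma) or with signals under 3.5, the 20th percentile of all signals, set to 3.5 (0.0544 and 0.0947), and DKK1 was not called after median centring of each array (0.312). Over all settings, the adjusted p from limma ranged from 0.00345 to 0.346 for DKK1 and from 0.00175 to 0.245 for SHISA3. SHISA3 was not called when FOXA1 transfected array 1, control array 2 or control array 3 was left out, with log2 differences of 2.01, 2.21 and 2.12. DKK1 was called when FOXA1 transfected array 3 was left out (0.90), and not when any other single array was, with log2 differences of 0.80 to 0.89.

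**Figure D1:**
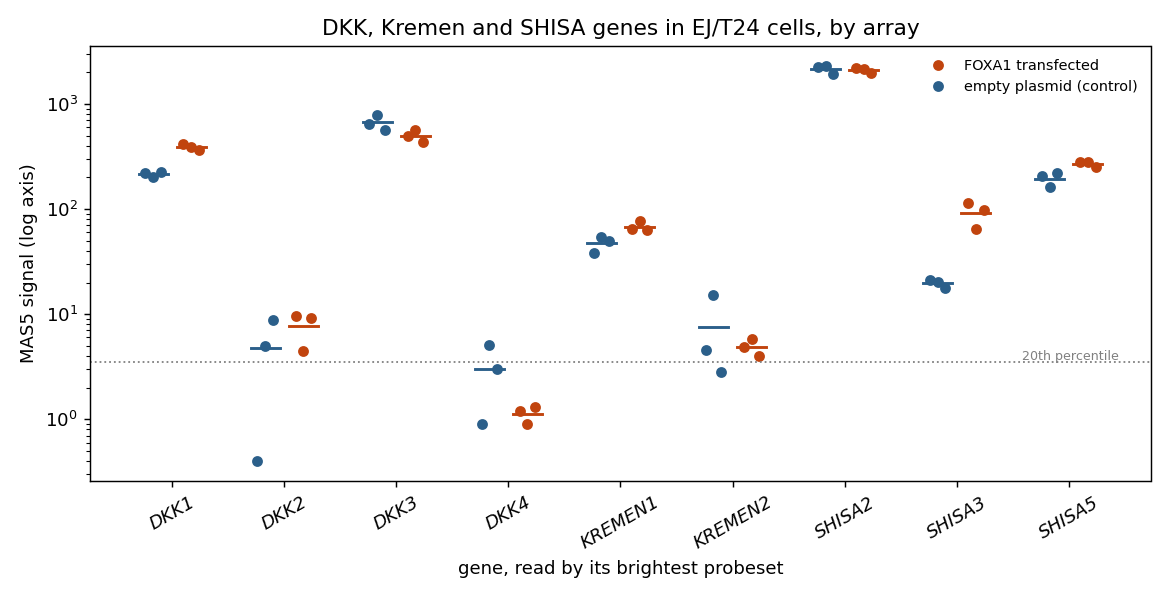
MAS5 signal (log axis) of the 9 genes at the brightest probeset of each, with a point for each of 3 FOXA1 transfected and 3 control arrays and a line for each mean; heights are not comparable between genes, since each probeset has its own scale. The groups are apart at DKK1, DKK3, KREMEN1, SHISA3 and SHISA5, and they overlap at DKK2, DKK4, KREMEN2 and SHISA2.

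DKK3 ran the other way at its brighter probesets. This divergent member of the family, at chr11:11963036-12009745, is often silenced in tumors and differs from DKK1 in how it acts on WNT signalling. At its brightest probeset (214247_s_at) the signals were 500.2, 561.5 and 438.2 in FOXA1 transfected arrays and 646.1, 784.5 and 572.2 in control arrays. Every FOXA1 transfected array was lower than every control array, by a small margin between the highest of the first group and the lowest of the second. The log2 difference was -0.41 (SE 0.12). At the next brightest (230508_at) the signals were 231.6, 223.4 and 196.7 against 278.9, 330.6 and 246.3, again without overlap, with a log2 difference of -0.39 (SE 0.12). In both probesets the second control array was the highest of the 6.

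The 4 DKK3 probesets above the median signal all had log2 differences below 0. The third brightest (202196_s_at) had -0.19 (SE 0.13) and the fourth (221127_s_at) -0.07 (SE 0.23), both with overlapping groups. The other 2 DKK3 probesets read between 0.2 and 8.3 on every array and had differences of 1.31 (SE 1.07) and 1.93 (SE 0.81). The signals of the first lay around the 20th percentile, and its groups overlapped. At the second (207875_at) every FOXA1 transfected array was higher than every control array, but all 6 signals lay under the 20th percentile. Little is read from either. With signals under 3.5 set to 3.5, the second of these differences became 0.

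DKK2 and DKK4, secreted proteins related to DKK1, were dim. DKK2, at chr4:106921802-107036313, had signals of 9.7, 4.5 and 9.1 in FOXA1 transfected and 0.4, 5.0 and 8.8 in control arrays at the brighter of its 2 probesets, a log2 difference of 1.50 (SE 1.06) that fell to 0.15 without the first control array. The other DKK2 probeset had 0.06 (SE 1.21). DKK4 had signals of 1.2, 0.9 and 1.3 against 0.9, 5.1 and 3.0, a log2 difference of -1.10 (SE 0.84). In all 3 probesets the groups overlapped, and no difference was detectable at these signals.

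KREMEN1, a receptor for DKK1, was read by 5 probesets, and 1 of these lay above the median signal. It lies at chr22:29073035-29168333. At that probeset (227250_at) the signals were 64.3, 76.7 and 63.2 in FOXA1 transfected and 38.6, 54.7 and 50.1 in control arrays. The groups did not overlap, and the log2 difference was 0.52 (SE 0.18), which was not called. The other 4 KREMEN1 probesets overlapped between groups, with log2 differences of 0.02, 0.71, 1.28 and -0.92 and SEs of 0.47 to 1.11. KREMEN2, the related receptor at chr16:2964275-2968380, had signals of 4.9, 5.8 and 4.0 against 4.6, 15.3 and 2.8. Its groups overlapped, and the log2 difference was -0.26 (SE 0.74).

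SHISA2, which like SHISA3 retains receptors in the endoplasmic reticulum, has 1 probeset and lies at chr13:26044597-26052016. It had signals of 2221.4, 2173.0 and 1987.1 in FOXA1 transfected and 2235.9, 2317.9 and 1927.4 in control arrays. The groups overlapped fully, and the log2 difference was -0.02 (SE 0.09), with a 95% interval of -0.21 to 0.17. SHISA5, also known as Scotin, is a target of p53 with a part in apoptosis, and lies at chr3:48467876-48504810. Its signals were 278.6, 282.8 and 250.4 in FOXA1 transfected and 204.6, 162.3 and 219.7 in control arrays. Every FOXA1 transfected array was higher, with a log2 difference of 0.48 (SE 0.12) that was not called.

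**Figure D2:**
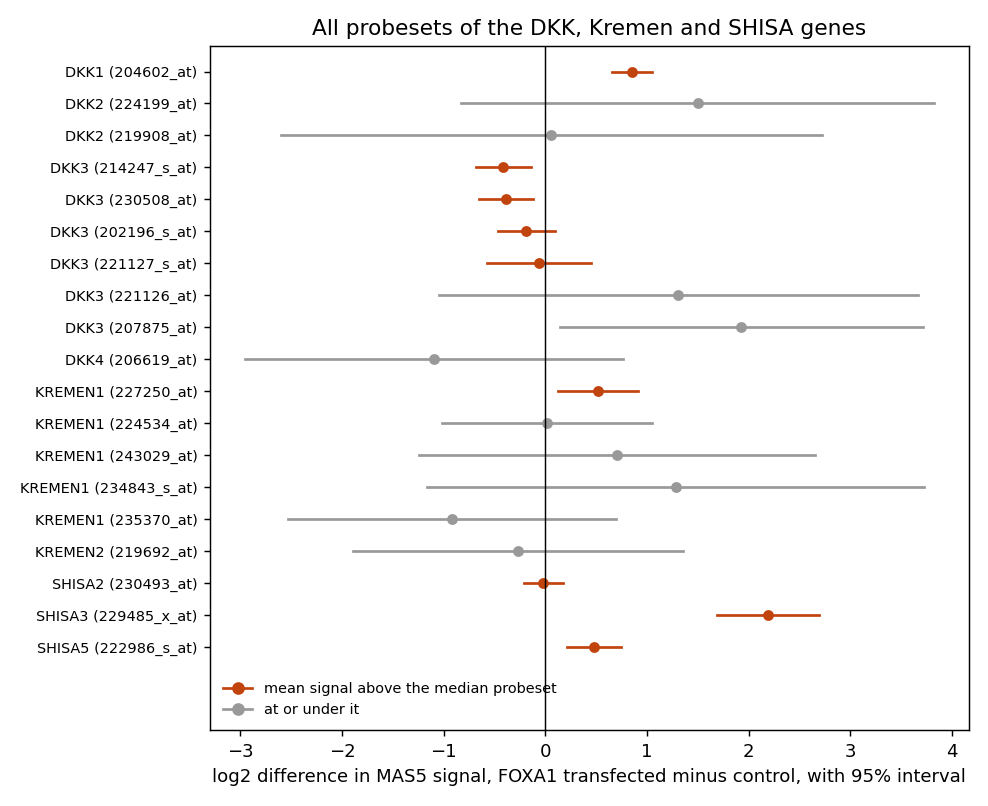
Log2 difference in MAS5 signal, FOXA1 transfected minus control, with its 95% interval from limma, for the 19 probesets of the 9 genes, coloured by whether the mean signal is above the median probeset. The bright probesets have narrow intervals, with SHISA3 at 2.19 and DKK1 at 0.85, and the dim ones have wide intervals that, apart from 1 DKK3 probeset at 1.93, include 0.

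Of the 19 member probesets, 5 had groups without overlap and higher in FOXA1 transfected cells, against 10.5% of all probesets, and 2 had groups without overlap and lower, against 5.86%. The 5 belong to DKK1, SHISA3, SHISA5, KREMEN1 and the dimmest DKK3 probeset, and the 2 to DKK3. DKK1 and SHISA3 are among the 5 by the choice of members. The dimmest DKK3 probeset lay under the 20th percentile on all 6 arrays. Nothing is read from this count. Of the 19 log2 differences 11 were above 0 and 8 below, a share above 0 of 57.9%, beside 58.2% of all probesets. Their median was 0.06, and that of all probesets 0.08. By gene, at the brightest probeset, 5 of 9 lay above 0 with a median of 0.48, beside 59.2% of 19775 genes with a median of 0.07. The 9 include DKK1 and SHISA3, whose higher signals the choice of members rests on, so nothing is read from this median.

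The 9 member probesets above the median signal had SEs of 0.09 to 0.23, and 6 of them had groups that did not overlap. Over all probesets, dim ones included, 10.5% were higher without overlap and 5.86% lower. The share among bright probesets alone was not computed. The 6 include DKK1, SHISA3 and 2 probesets of DKK3, so nothing is read from this count. The 10 at or under the median signal had SEs of 0.47 to 1.21, and 1 had no overlap. Since the members were chosen for the differences of DKK1 and SHISA3, the ranks of these 2 only describe that choice. Beside probesets of like signal (bins of 2730 or 2731), SHISA3 was the highest of its bin, 0.110% of the bin of DKK1 had a higher difference than DKK1, and the shares for SHISA5 and KREMEN1 were 1.47% and 4.87%. For the 2 DKK3 probesets without overlap and below 0, 97.4% and 95.7% of the bin had a higher difference. The log2 differences of DKK2 and of the second dimmest DKK3 probeset, 1.50 and 1.31, were larger than that of DKK1, and 8.86% and 15.6% of their bins were higher still. At the dimmest DKK3 probeset, with 1.93, this share was 2.20%.

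**Figure D3:**
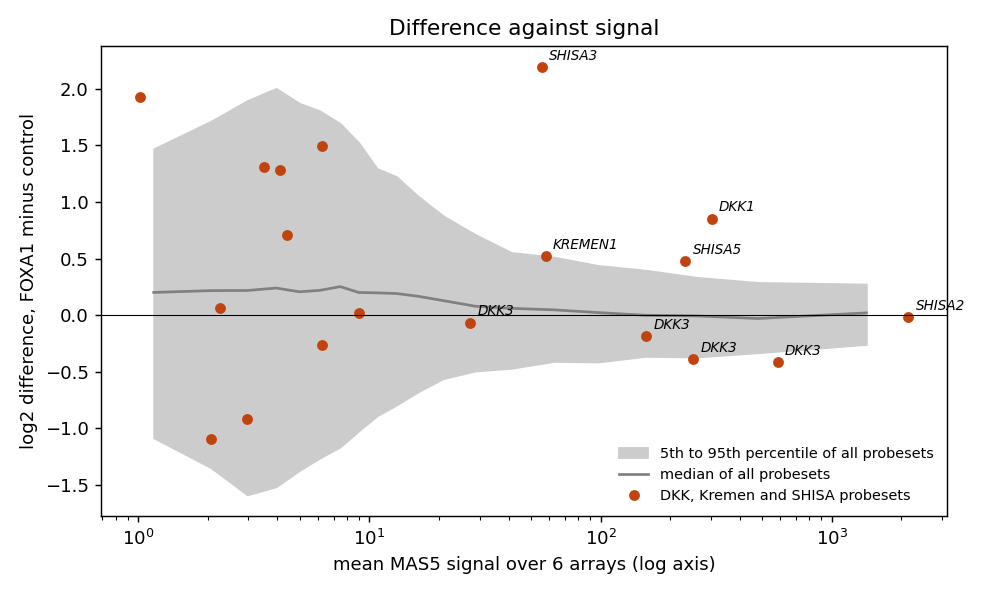
Log2 difference, FOXA1 transfected minus control, against the mean MAS5 signal over 6 arrays (log axis), with points for the 19 member probesets and a grey band from the 5th to the 95th percentile of all probesets in 20 bins of signal. SHISA3, DKK1 and SHISA5 lie above the band, KREMEN1 at its upper edge and 2 DKK3 probesets just below it, while the dim members lie inside it, apart from 1 DKK3 probeset.

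For DKK1 and SHISA3, the 5 probesets with the most similar pattern over the 6 arrays were taken from 22649 with a single symbol and a signal above the median. For DKK1 these were PRRT3-AS1, ERCC2, SCAMP3, LYRM2 and ETNK1 (Pearson's r of log2 signals 0.995 to 0.997), and for SHISA3 they were NF2, BRAP, BANF1, PSMB4 and TP53I11 (0.993 to 0.996). These correlations are over 6 arrays that fall into 2 groups, so they carry the difference between the groups, and any probeset with a difference large against its spread has a high value. At TP53I11, a p53 inducible gene, the signals were 30.3, 20.1 and 24.3 against 5.6, 6.7 and 5.5 (log2 difference 2.06), and those of the other 4 probesets like SHISA3 differed by 0.30 to 0.51. In all 5 the second FOXA1 transfected array was the lowest of its group, as at SHISA3. Picking probesets by their likeness to SHISA3 favours this order, so nothing is read from it. The 5 probesets like DKK1 differed by 0.31 to 0.74, the last at PRRT3-AS1.

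Of the other genes of the pathway, 54 of 57 listed were measured, each read by its brightest probeset. The lists held no member and none of their genes passed limma at an adjusted p under 0.05. By unadjusted p under 0.05 there were 2 (3.70%), beside 14.7% of all genes at their brightest probeset. Over all 136 probesets of the same lists there were 17 (12.5%), beside 11.3% of all probesets. These were unevenly spread, with 9 of the 17 among the 31 probesets of WNT target genes, most of them of CD44. The log2 differences of the 54 were above 0 in 36 and below 0 in 18, with a median of 0.16. This compares with 59.2% above 0 and a median of 0.07 among all genes.

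Other WNT antagonists numbered 19, with 13 above 0 and 6 below (median 0.13), and only 4 had a signal above the median. TRABD2B, a membrane protease that cleaves WNT ligands, had signals of 1.3, 1.7 and 1.7 in FOXA1 transfected and 10.2, 5.7 and 7.8 in control arrays, without overlap (log2 difference -2.31, SE 0.68; limma gave an adjusted p = 0.246). Its signals straddle the 20th percentile, and its dimmer probesets had differences of 0.95 and -0.14 with overlapping groups. RNF43, a ubiquitin ligase that removes Frizzled receptors, had a log2 difference of 1.71 (SE 0.94). The RNF43 signals of 3.7, 13.9 and 5.3 against 2.2, 0.6 and 5.9 overlapped and also straddle the 20th percentile. CER1, a secreted antagonist of nodal, BMP and WNT ligands, had 0.67 (SE 0.40). Neither RNF43 nor CER1 passed the threshold. The secreted Frizzled-related genes SFRP1, SFRP2, SFRP4, SFRP5 and FRZB had differences of -0.25 to 0.25 at their brightest probesets. The SEs there were 0.36 to 0.90, signals were at most 26.9, and SFRP5 lay under the 20th percentile on all 6 arrays. Their other probesets ranged from -0.79 (SE 0.88) at FRZB to 1.17 (SE 0.73) at SFRP4.

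The receptors that DKK1 acts on were all measured above the median signal. LRP6 had signals of 246.4, 248.5 and 258.3 in FOXA1 transfected and 292.3, 305.4 and 265.3 in control arrays. All 3 FOXA1 transfected arrays were lower, with a log2 difference of -0.19 (SE 0.09) and an adjusted p = 0.455 from limma. At its other bright probeset the difference was 0.34, of the other sign, and at the third and dimmest it was -1.18 without overlap of the groups. LRP5 had 12.5, 10.9 and 13.3 against 18.6, 16.5 and 19.8, also without overlap (log2 difference -0.58, SE 0.34, adjusted p = 0.562 from limma). MESD, the chaperone of both receptors, differed by 0.14 (SE 0.10), LRP4 by -0.23 (SE 0.18) and CKAP4, another DKK1 receptor, by -0.10 (SE 0.09). At the other bright CKAP4 probeset the difference was 0.11, of the other sign. Thus 4 of these 5 genes lay below 0 at their brightest probesets (median -0.19), but LRP6 and CKAP4 did not do so at both bright probesets, and 0 passed.

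The relatives DKKL1 and the other SHISA genes numbered 8 measured, of which 7 lay above 0 (median 0.33) and 1 had a signal above the median. SHISA8 (log2 difference 1.19, SE 0.67), SHISA9 (0.64, SE 0.76) and DKKL1 (0.58, SE 0.71) had the smallest p among them and did not pass. DKKL1 read 1.0 to 1.9, under the 20th percentile on all 6 arrays. The other, dimmer SHISA9 probeset had signals of 2.6, 3.6 and 6.1 against 0.7 on every control array. Its log2 difference was 2.46 (SE 0.74, adjusted p = 0.250 from limma). Of 13 Frizzled and FGF receptors, which SHISA proteins hold back, 9 lay above 0 and 4 below (median 0.21). FZD7 had signals of 77.6, 74.6 and 71.6 in FOXA1 transfected and 95.4, 102.2 and 87.6 in control arrays. The groups did not overlap, and the log2 difference was -0.35 (SE 0.13) with an adjusted p = 0.328 from limma, beside -0.30 at the other FZD7 probeset. FZD2 differed by -0.19 (SE 0.10) and FGFR2 by 0.56 (SE 0.32), without passing. At the other FZD2 probeset the difference was 0.18, of the other sign. At the other FGFR2 probesets above the median signal it was -0.34 and 0.01. FZD6 differed by -0.01 (SE 0.08).

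Genes that respond to WNT signalling numbered 9 measured, with 6 above 0 and 3 below (median 0.15), and 0 passed. AXIN2, a feedback inhibitor and common readout of beta-catenin, had signals of 22.0, 20.2 and 16.7 in FOXA1 transfected and 17.5, 12.6 and 14.6 in control arrays. These overlap, and the log2 difference was 0.40 (SE 0.33, adjusted p = 0.690 from limma). LEF1, a transcription factor of the pathway, differed by -0.20 (SE 0.12), the cyclin CCND1 by 0.28 (SE 0.15) and MYC by -0.03 (SE 0.15). CD44, a hyaluronan receptor, differed by 0.15 (SE 0.08) at its brightest probeset. However, the other 8 CD44 probesets above the median signal all lay below 0, down to -0.71, and in 7 of the 8 the groups did not overlap. Of all probesets 5.86% were likewise lower without overlap. The 8 read the same gene on the same arrays and are not separate observations. The smallest adjusted p among the CD44 probesets was 0.111 from limma, so none passed.

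**Figure D4:**
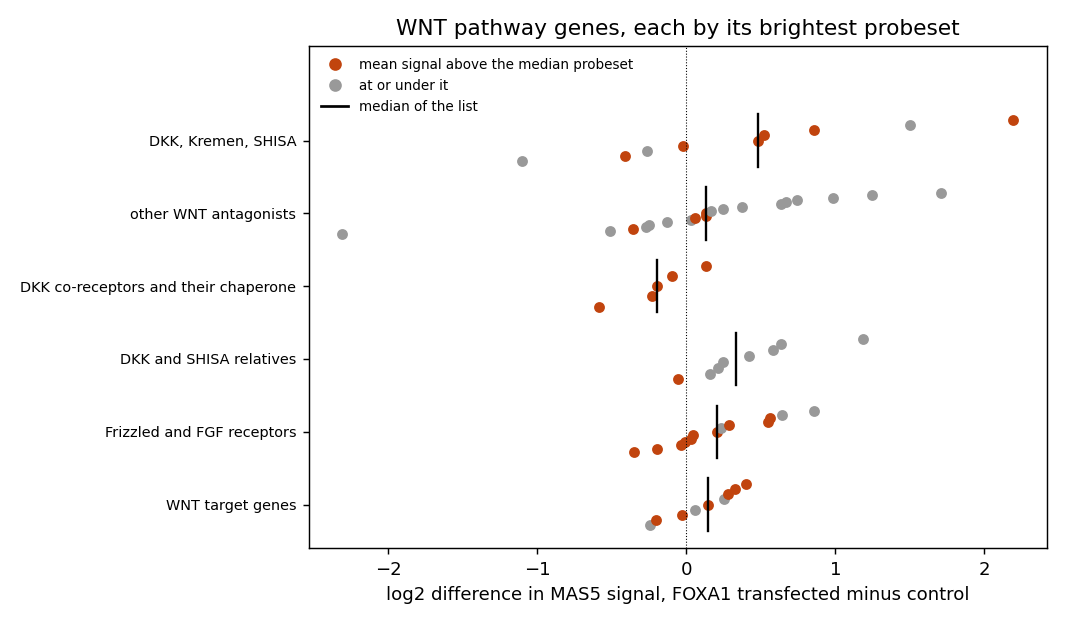
Log2 difference in MAS5 signal, FOXA1 transfected minus control, of the 9 member genes and of 5 lists of other WNT pathway genes, each gene at its brightest probeset, with a point for each gene and a black line for the median of each list. The member genes spread from -1.10 to 2.19, and 4 of the 5 genes for DKK co-receptors and their chaperone lie below 0. LRP6 and CKAP4, which are among the 4, each have another bright probeset above 0 that is not shown.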

How the data were processed

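The members and gene lists were chosen with earlier results of these data known. RNA of 6 EJ/T24 samples was hybridised to HG-U133 Plus 2.0 arrays. The authors deposited 1 MAS5 signal for each probeset in each array, a linear intensity. The methods name RMA log2 conversion and SAM after this step, neither of which is in these values or was run here, since SAM takes its threshold from permuted samples. No detection calls were used. Array control probesets (62) were left out, signals listed at 0 (25 in all) were set to 0.1, and log2 values of all other probesets were compared between groups with limma 3.58.1 in R 4.3.3 (eBayes with an intensity trend, two-sided, Benjamini-Hochberg over all 54613 probesets, threshold 0.05). The script was tested on simulated data. Groups came from the sample labels, and all columns of sample values were used. Symbols came from the platform annotation, and all 19 member probesets matched a current RefSeq gene by Entrez number. Promoters were found for 4 of 9 members (5 in all). Genes named were all members, the 3 of each list with the smallest p, LRP5, LRP6 and the 5 most similar probesets for DKK1 and SHISA3. AXIN2, MYC, FZD6, LRP4, CKAP4, the SFRP genes and the other probesets of list genes, CD44 among them, were named after their values were seen. The number of arrays limits the precision. Alternatives were no trend, quantile normalization, median centring, a floor at 3.5, leaving out dim or _x_at probesets, a replicate block and leaving out each array.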

Additional observations from a re-analysis of the deposited data

How the results depend on the processing

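The direction of DKK1 and SHISA3 was the same under all alternatives tried, and their calls were not. Without the intensity trend DKK1 (log2 difference 0.85) and SHISA3 (2.19) were not called, and 0 member probesets were. With signals under 3.5 set to 3.5, the differences were again 0.85 and 2.19 and 0 were called. Median centring left 1 called, SHISA3, with DKK1 at 0.67, and shifted the median over all probesets from a log2 difference of 0.08 to one of -0.10. Without _x_at probesets 1 was called, DKK1. Quantile normalization and leaving out dim probesets kept both calls. Leaving out each array in turn, 0 to 2 member probesets were called, with DKK1 at 0.80 to 0.90 and SHISA3 at 2.01 to 2.43. Over all probesets, 21 higher and 11 lower calls became 1 and 0 without the trend, 5 and 2 with median centring, and 97 and 77 without dim probesets. With the replicate block, the member calls stayed at 2, with DKK1 at 0.85 and SHISA3 at 2.19, while the calls over all probesets were 40 higher and 45 lower. Same-numbered arrays had correlations of deviations of 0.044, 0.164 and 0.107, each array correlating best with its own number, a hint from the data and not from the design. The labels name nothing shared by a number and 1 of these correlations is under 0.1, so the numbers were not taken as pairs. No gene of the WNT lists was called under any alternative. Of 160 values of the other 17 member probesets under the alternatives, 152 moved by less than the spread between arrays and 8 by more, and 17 had the other sign. KREMEN1's brightest probeset ranged from 0.34 to 0.62, SHISA5 from 0.30 to 0.57, and the 2 DKK3 probesets without overlap and below 0 from -0.59 to -0.27. SHISA2 and the fourth brightest DKK3 probeset changed sign, in 3 and 2 of 10 settings. Signals near the 20th percentile limit what can be said of DKK2, DKK4 and KREMEN2.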
